A study of Gossypium hirsutum with 51 samples.

Results

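SDH, ATP1 and ATP2 are 3 of the 11 spots that carry a gene-like name on a cDNA array of upland cotton (Gossypium hirsutum), and they were taken by name from a table of 11706 rows that also holds 11682 cDNA clones and 13 control rows. The arrays compared total RNA of whole ovules, labelled with the dyes Cy5 and Cy3 and hybridised as pairs. In wild type, ovules of +3 DPA (days post anthesis, with 0 as the day of flowering) served as the common partner for ovules of -3, 0, +5, +10, +15 and +20 DPA. Wild-type ovules were compared with fl-mutant ovules of the same age at +3 and at +10 DPA. The labels name no allele, treatment or cultivar for either genotype, and the mutant is given there only as the fl-mutant. Each of these 8 comparisons comprised 3 sets of a forward array and its dye swap, and 3 more arrays carried wild-type RNA of +3 DPA in both channels. The design text describes the samples as biologically independent, so a set counted as 1 replicate.

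Cotton fibres are single cells that grow out of the outer layer of the ovule around the day of flowering and elongate for weeks, so whole-ovule RNA mixes young fibres with the rest of the ovule. The ovule carries no marker list in the labels, and the named spots are annotated with no cell type, so the tissue was not checked by markers. Respiring mitochondria oxidise the products of sugar breakdown in the citrate cycle, pass the electrons along a chain of membrane complexes, and use the resulting proton gradient to make ATP. SDH is the usual abbreviation of succinate dehydrogenase, which belongs both to the citrate cycle and to that chain, where it oxidises succinate to fumarate and hands the electrons to ubiquinone. The abbreviation is used for other dehydrogenases too, and the table does not spell it out. In plants atp1 is the mitochondrial gene of the alpha subunit of ATP synthase, the enzyme that makes ATP from the gradient, and in the yeast Saccharomyces cerevisiae ATP2 is the gene of the beta subunit. In the RefSeq annotation of cotton, 1 of the 11 names, ATP1, matches a gene symbol, atp1 on the mitochondrial genome, when case is ignored. The other 10 names match none, and neither does any clone name, so no other gene of respiration could be looked up among the clones. The mitochondrial genome lists 2 genes whose symbols begin with sdh, sdh3 and sdh4, and neither is called SDH.

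All values are log2 ratios, so a value of 1 is a doubling. SDH and ATP2 were measured on all 51 arrays and ATP1 on 50. Their values were not normalized, which means that an array's overall offset between the dyes is still in them. Every value is therefore also considered after subtracting the median of the named spots of its array, called the centred value below, and as a difference of spots within an array, in which the offset cancels. No label says which RNA a ratio has on top. It is likely that of the array titles, first RNA over second. It rests on a control spot named HEX, which read from -11.7 to -7.16 on 23 forward arrays and from 5.83 to 12.1 on 23 swapped arrays. The forward arrays of +5 against +3 in set 3 and of +10 against +3 in set 2 hold equal values in 19 of 19 control and named spots. That array was left out of both comparisons, which then rest on 2 sets each, and 22 complete sets entered the analysis.

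SDH differed from +3 at every one of the 6 other ages and between the genotypes at both ages. It was lower in ovules of -3 and 0 DPA, higher in ovules of +5 to +20 DPA, and higher in wild type than in fl, where the direction at +3 DPA is the least certain. ATP1 was called in 0 of the 8 comparisons, and in 0 of 8 at an unadjusted limma p below 0.05. ATP2 was lower than at +3 at +5, +15 and +20 DPA, and at +3 DPA wild type exceeded fl, by 1.27- to 1.53-fold in these 4 comparisons. A value was called when limma's adjusted p over the whole table was below 0.05.

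**Figure D1:**
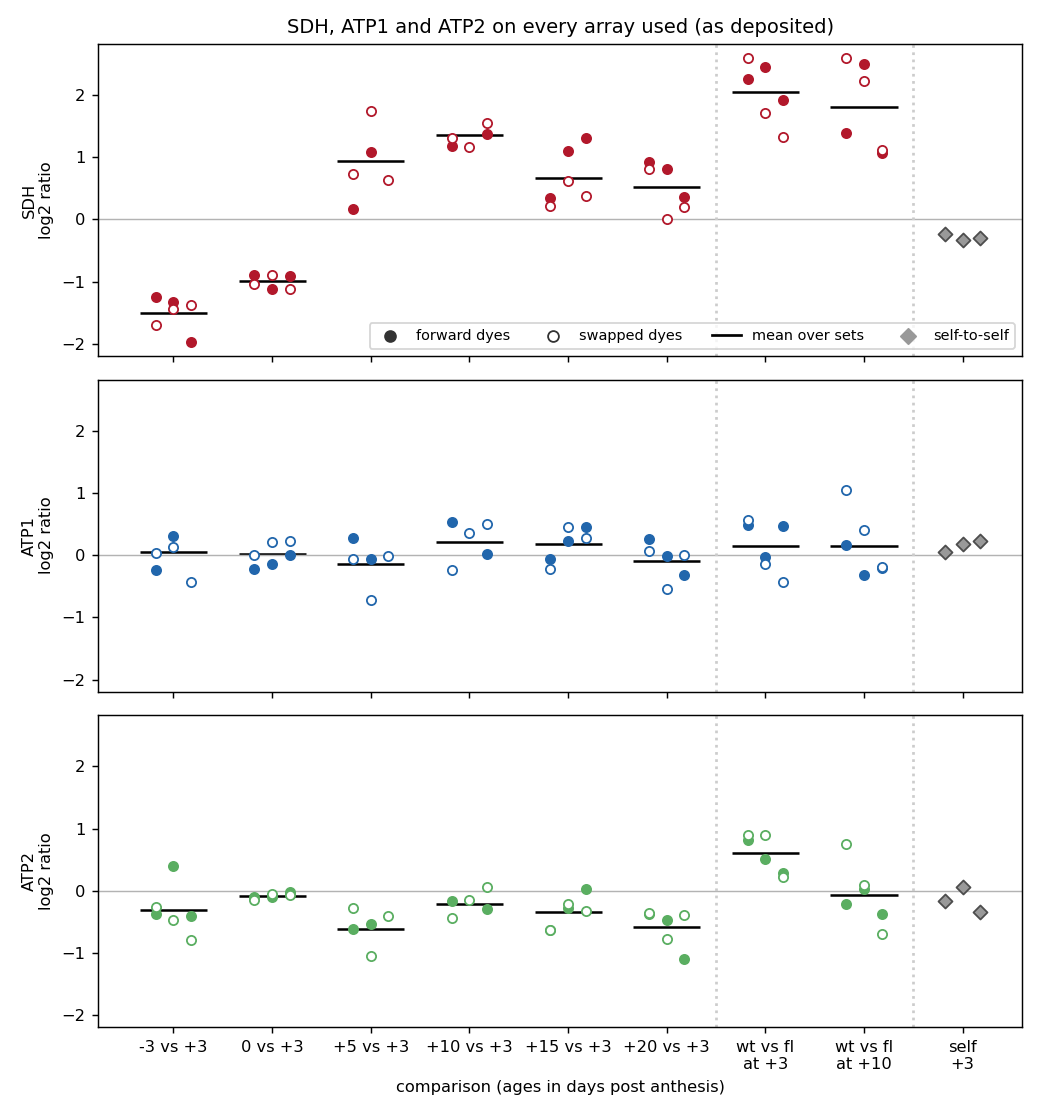
Log2 ratio of SDH, ATP1 and ATP2 (vertical axes) on each array of the 8 comparisons and on the self-to-self arrays (horizontal axis), with forward arrays as filled circles, swapped arrays as open circles and the mean over complete sets as a bar. SDH lies below 0 on every array of -3 and 0 and above 0 on the arrays of the other comparisons, while ATP1 straddles 0. The swapped arrays of +5 set 3 and +10 set 2 are drawn but are not in the mean.

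Before flowering, at -3 DPA, SDH read -1.47, -1.39 and -1.67 in the 3 sets against +3. The mean of -1.51 ± 0.15 (SD, n = 3) is a 2.85-fold lower level (limma adjusted p = 2.50e-06). All 3 sets lay closer to each other than to 0. At this age 1 of the 3 spots was called, where 45.1% of all probes tested were called. On the day of flowering the sets read -0.966, -1.003 and -1.016, the tightest agreement of any comparison for this spot. The mean of -0.995 ± 0.026 (SD, n = 3) is 1.99-fold lower than at +3 (adjusted p = 0.000597), and SDH was again the 1 spot of the 3 that was called, against 28.6% of all probes. The rise from -3 to 0, compared through +3, was 0.52 with a 95% interval of -0.06 to 1.09 and was not called (adjusted p = 0.210, against 19.2% of probes called).

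At +5 DPA the 2 complete sets of SDH lay far apart, at 0.45 and 1.41. Their mean was 0.93 ± 0.68 (SD, n = 2; adjusted p = 0.00277), and without set 2 the remaining value of 0.45 was not called (adjusted p = 0.298). SDH and ATP2, 2 of the 3 spots, were called at +5, where 56% of probes were. At +10 DPA the sets stood at 1.25 and 1.46, and SDH reached its highest mean of the age series. That mean, 1.35 ± 0.15 (SD, n = 2), is 2.55-fold above +3 (adjusted p = 8.54e-05), and 1 of the 3 spots was called against 59.1% of probes.

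At +15 DPA the sets of SDH were 0.28, 0.86 and 0.84, with set 1 well below the other two. The mean was 0.66 ± 0.33 (SD, n = 3; adjusted p = 0.00561). At +20 DPA it was set 1 that stood high, at 0.87 against 0.40 and 0.28. The mean of 0.52 ± 0.31 (SD, n = 3) was called (adjusted p = 0.0244) but was no longer called without set 1 (0.34, adjusted p = 0.210). At both ages 2 of the 3 spots, SDH and ATP2, were called, against 68% of probes at +15 and 69.3% at +20, so a call at these ages is the common outcome on the array.

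Ordered by level, SDH ran from -3 through 0, +3, +20, +15 and +5 to +10 DPA. Of the neighbours in that order, 0 and +3 differed beyond the error of the fit, and so did +3 and +20, with the dependence on set 1 just given. The other neighbours did not. The step from +15 to +5 was 0.27 (95% interval -0.38 to 0.92; adjusted p = 0.532) and that from +5 to +10 was 0.42 (-0.29 to 1.13; adjusted p = 0.520), with 35.5% and 6.1% of probes called in these contrasts. Between +5 and +20 the difference was 0.41 (-0.23 to 1.06; adjusted p = 0.331, against 29.9% of probes). From the day of flowering to +5 the change was large, although the 2 sets of +5 lay far apart. There +5 exceeded 0 by 1.93 (95% interval 1.28 to 2.57, adjusted p = 2.76e-05, against 58.1% of probes called). The later decline, +15 minus +10, was -0.69 (95% interval -1.34 to -0.04) and missed the threshold after adjustment (adjusted p = 0.0978, against 30.9% of probes). The step from +15 to +20 was -0.14 (adjusted p = 0.831, against 7.97% of probes).

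**Figure D2:**
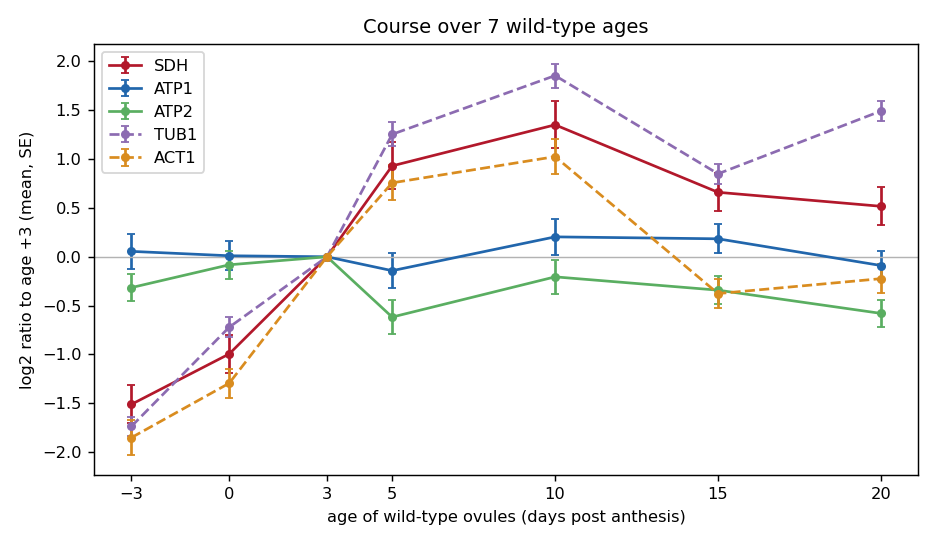
Mean log2 ratio to +3 DPA (vertical axis, bars are the standard error of the limma fit) against ovule age in days post anthesis (horizontal axis) for SDH, ATP1, ATP2, TUB1 and ACT1 in wild type, with +3 set to 0 as the reference. SDH climbs from -1.51 at -3 to 1.35 at +10 and stands at 0.52 at +20, while ATP1 stays between -0.14 and 0.20.

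The largest SDH means were those between the genotypes. At +3 DPA wild type exceeded fl by 2.42, 2.08 and 1.63 in the 3 sets. In the deposited values, which hold the array offset, all 3 sets lay above the highest set of the age comparisons, 1.46 at +10. The mean of 2.04 ± 0.40 (SD, n = 3) is a 4.12-fold higher level in wild type (adjusted p = 4.43e-08). Once centred, the sets were 1.62, 1.21 and 1.09, while set 2 of +5 stood at 1.44. The centred mean is a 2.47-fold higher level in wild type. This direction is likely but not settled, because the clone rows of the same arrays had to be turned. In this comparison HEX lay between -9.20 and -8.20 on the 3 forward arrays and between 5.83 and 9.09 on the 3 swapped ones, the signs it has elsewhere, so the named rows were kept as deposited. If they too needed turning, SDH would be -2.04, and every genotype value at +3 given for the named spots would have the opposite sign. SDH and ATP2 were called, 2 of the 3 spots, against 44.3% of probes. At +10 DPA the sets read 1.99, 2.36 and 1.09. Their mean was 1.81 ± 0.65 (SD, n = 3), a 3.51-fold higher level in wild type (adjusted p = 9.38e-08), and SDH was the 1 spot of the 3 called against 66.1% of probes. Set 3 was the lowest at both ages, and it was still above 1. In whole ovules, fewer cells of a type that carries a transcript and less of that transcript per cell cannot be told apart.

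The genotype difference of SDH at +10 minus that at +3 was -0.23 (95% interval -0.81 to 0.35; adjusted p = 0.514), but with the named rows at +3 turned it would be 3.85. In that contrast 45% of probes were called, or 65.4% with the clone rows at +3 in their deposited sign. No array compared fl at +10 with fl at +3, but 3 comparisons together give that change. In fl, SDH so derived was 1.58 higher at +10 than at +3 (95% interval 0.82 to 2.35; adjusted p = 0.00226), where 36.1% of probes were called, or 50.6% with the deposited sign. With the named rows at +3 turned the derived change would be -2.50, so its direction rests on that sign. On the centred scale the derived change was 0.45 and was not called (adjusted p = 0.307). Within arrays, as SDH minus the mean of the ATP spots, it was 1.25 (adjusted p = 0.00574), and without set 1 or without set 3 this difference missed the threshold, with values of 1.13 and 1.15.

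ATP1 lay near 0 throughout. Its comparison means ran from -0.14 at +5 to 0.20 at +10 DPA, with adjusted p between 0.276 and 0.968. At -3 DPA it read -0.10 and 0.21 in the 2 sets that measured it on both arrays, and on the day of flowering -0.11, 0.03 and 0.11. The sets straddled 0 at both ages. They did so too at +5 (0.11 and -0.40), +15 (-0.14, 0.34 and 0.36) and +20 (0.17, -0.28 and -0.16), while both sets of +10 were above 0, at 0.15 and 0.26. Without set 1 the mean of +15 was 0.35 and was called (adjusted p = 0.0162). Wild type minus fl was 0.15 ± 0.33 at +3 and 0.15 ± 0.42 at +10 (SD, n = 3 each), with the highest value in set 1 both times, 0.53 and 0.61. The 95% intervals of the 8 means reached no further than -0.52 and 0.58. The forward and the swapped array of a set gave ATP1 the same sign in 13 of 21 sets.

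ATP2 was lower than at +3 in the mean of all 6 ages, and 3 of those means were called. At +5 DPA the sets were -0.45 and -0.79, with a mean of -0.62 ± 0.24 (SD, n = 2; adjusted p = 0.00489), and without set 2 the value of -0.45 was not called (adjusted p = 0.225). At +15 they were -0.63, -0.24 and -0.15, with a mean of -0.34 ± 0.26 (SD, n = 3; adjusted p = 0.0369) that was not called without set 1 (-0.20, adjusted p = 0.328) or without set 2 (-0.39, adjusted p = 0.0968). At +20 the sets read -0.37, -0.63 and -0.74. Their mean of -0.58 ± 0.19 (SD, n = 3; adjusted p = 0.00110) held when any set was left out, with values from -0.69 to -0.50, and it is the firmest of the 3 decreases. At +10 the mean was -0.21 ± 0.13 (SD, n = 2; adjusted p = 0.312), at 0 it was -0.08 ± 0.04 and at -3 it was -0.32 ± 0.28 (SD, n = 3 each; adjusted p = 0.709 and 0.0736).

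Between the genotypes ATP2 behaved differently at the 2 ages on the deposited scale. At +3 DPA wild type exceeded fl by 0.86, 0.70 and 0.26, a mean of 0.60 ± 0.31 (SD, n = 3; adjusted p = 0.00165). Without set 1 the mean was 0.48 and missed the threshold (adjusted p = 0.0518). At +10 DPA the sets were 0.28, 0.06 and -0.53, on both sides of 0, with a mean of -0.07 ± 0.42 (SD, n = 3; adjusted p = 0.686). The change of this difference with age was -0.67 (95% interval -1.09 to -0.26; adjusted p = 0.00975), and without set 2 it was -0.68 and was not called (adjusted p = 0.0726). With the named rows at +3 turned it would be 0.54 (adjusted p = 0.0332). On the +3 arrays every one of the 11 named spots had a mean above 0, and the medians subtracted in centring averaged 0.74 over these arrays. After centring, wild type minus fl of ATP2 at +3 was -0.13 ± 0.17 (SD, n = 3; adjusted p = 0.197) and the change with age was 0.0098, so relative to the other named spots no higher value in wild type was called.

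**Figure D3:**
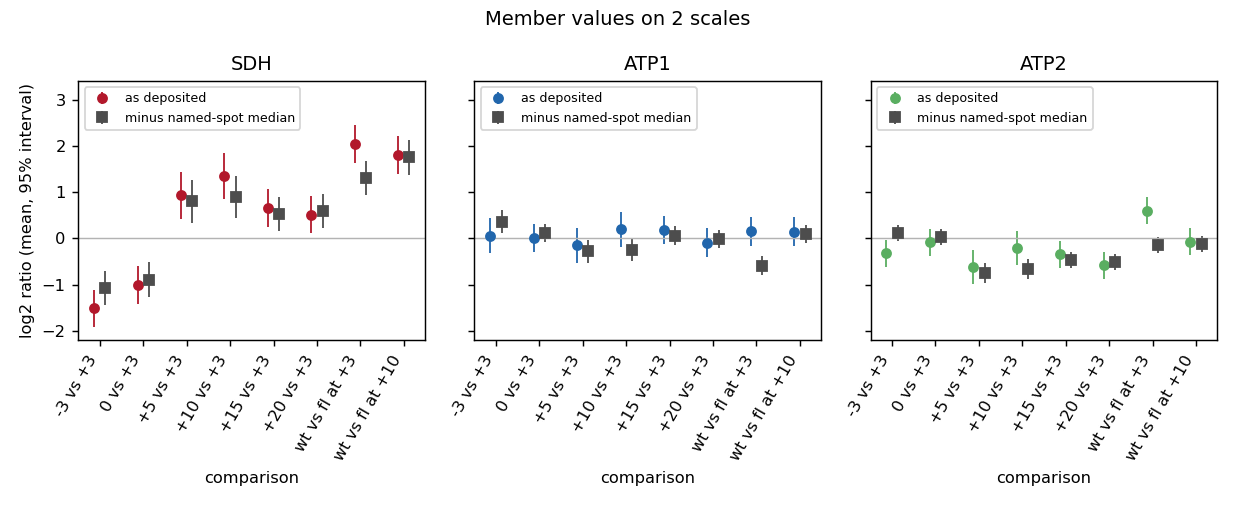
Mean log2 ratio (vertical axes, bars are 95% intervals of the limma fit) of SDH, ATP1 and ATP2 in the 8 comparisons (horizontal axis), as deposited (coloured circles) and after subtracting each array's median of the named spots (grey squares). SDH keeps its sign and its call in all 8 on both scales, whereas ATP2 in wild type against fl at +3 goes from 0.60 to -0.13.

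Centring left the SDH calls in place. The centred means of SDH were -1.07 ± 0.19 at -3, -0.89 ± 0.06 at 0, 0.53 ± 0.07 at +15 and 0.60 ± 0.14 at +20 (SD, n = 3 each), and 0.80 ± 0.91 at +5 and 0.90 ± 0.02 at +10 (SD, n = 2 each). Wild type minus fl was 1.31 ± 0.28 at +3 and 1.75 ± 0.55 at +10 (SD, n = 3 each). The largest adjusted p among these 8 was 0.0122, at +15. The scatter between sets shrank at +10, +15 and +20, where the 3 sets of +15 came to 0.60, 0.54 and 0.46, and it grew at -3, 0 and +5, the last with sets of 0.16 and 1.44. ATP2 after centring was lower than at +3 at each of the 4 ages from +5 on, with means of -0.75, -0.65, -0.47 and -0.50 in order of age, all called with adjusted p of 4.44e-05 or less. At -3 and 0 its centred means were 0.12 and 0.03 and were not called. ATP1 after centring was called at -3 (0.36, adjusted p = 0.0182) and, with the opposite direction, in wild type against fl at +3 (-0.58, adjusted p = 7.19e-05). The centred value of a spot depends on what the other named spots did on the same array, and the 3 members are among the 11 from which the median was taken.

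SDH was then set against the ATP spots of the same array. SDH minus the mean of ATP1 and ATP2 was called in 8 of 8 comparisons, lower at -3 and 0 and higher in the other 6, among them wild type against fl at +3 with its sign as deposited. At -3 the sets were -1.26 and -1.48, with a mean of -1.37 ± 0.15 (SD, n = 2; adjusted p = 3.09e-05), and at 0 they were -0.85, -0.98 and -1.05, with a mean of -0.96 ± 0.10 (SD, n = 3; adjusted p = 0.000308). Every set before or on the day of flowering was thus below 0. At +5 the sets were 0.61 and 2.01, more than 1 apart, with a mean of 1.31 ± 0.99 (SD, n = 2; adjusted p = 4.76e-05). Without set 2 only the value of 0.61 is left, and 1 set cannot show the scatter at this age. At +10 the sets of 1.32 and 1.38 were nearly equal, with a mean of 1.35 ± 0.04 (SD, n = 2; adjusted p = 2.96e-05).

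The difference narrowed at the later ages but stayed above 0 in every set. It was 0.67, 0.81 and 0.74 at +15, with a mean of 0.74 ± 0.07 (SD, n = 3; adjusted p = 0.000968). At +20 it was 0.97, 0.86 and 0.73, with a mean of 0.85 ± 0.12 (SD, n = 3; adjusted p = 0.000252). The step from +10 to +15 was -0.61 (95% interval -1.19 to -0.04) and was not called (adjusted p = 0.0996). Without set 2, which the mean of +10 does not hold, the step was -0.65, of similar size. Its standard error fell from 0.28 to 0.15, because the fit takes its scatter from all comparisons together. Leaving out that set therefore does not show a larger decline from +10 to +15. With the array of 2 labels kept under both, the step was -0.67 and was called (adjusted p = 0.0312). Whether the step is called thus depends on the handling of that array. Wild type minus fl of the difference was 1.73, 1.77 and 1.49 at +3 and 1.55, 2.30 and 1.46 at +10. The means of 1.67 ± 0.15 and 1.77 ± 0.47 (SD, n = 3 each) had adjusted p of 2.49e-07 and 3.72e-08, and they did not differ from each other beyond their error (0.10, 95% interval -0.41 to 0.62; adjusted p = 0.751). With the named rows at +3 turned, the first mean would be -1.67 and the difference 3.43.

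**Figure D4:**
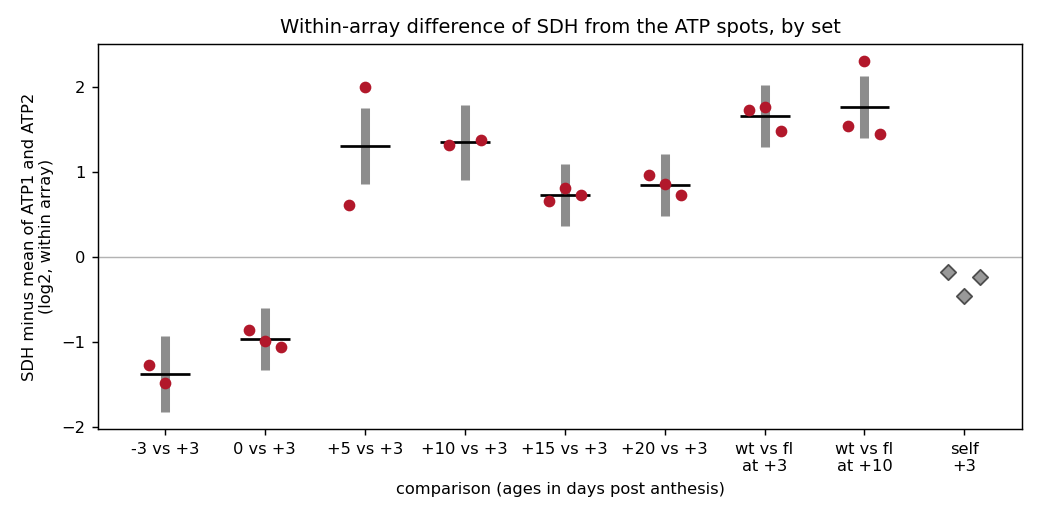
Within-array difference of SDH from the mean of ATP1 and ATP2 (vertical axis, log2) for each set (points) of the 8 comparisons (horizontal axis), with the mean (black line) and its 95% interval (grey bar), and for the self-to-self arrays (diamonds). The sets of -3 and 0 lie between -1.48 and -0.85, those of the other comparisons between 0.61 and 2.30, and the self-to-self arrays between -0.45 and -0.17.

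The same contrast can be read array by array. SDH was above both ATP spots on 33 of the 34 arrays with all 3 values in the comparisons of +5, +10, +15 and +20 and of the genotypes, and below both on 11 of 11 arrays of -3 and 0. The exception was the forward array of +5 in set 1, where SDH read 0.16 and ATP1 0.28. The arrays of wild type against fl at +3 are counted with their deposited sign, here and in the sign-flip test below. The forward and the swapped array of a set agreed in the sign of SDH in 22 of 22 sets and in that of ATP2 in 18 of 22. An exact two-sided sign-flip test over sets, which uses no model, gave p = 0.03125 for the 6 genotype sets together (mean 1.72) and for the 6 sets of +15 and +20 (mean 0.80), the smallest p that 6 sets allow. The 5 sets of -3 and 0 (mean -1.12) and the 4 sets of +5 and +10 (mean 1.33) each had all their sets on 1 side of 0, and their exact p of 0.0625 and 0.125 are likewise the smallest possible. Adjusted over the 4 tests, the values were 0.0625, 0.0625, 0.0833 and 0.125. With so few sets no outcome could have passed 0.05 after adjustment, so these tests cannot decide at that threshold.

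Taken singly, the ATP spots gave the same picture for SDH. SDH minus ATP1 and SDH minus ATP2 were each called in 8 of 8 comparisons with the directions above. The smallest of these differences was SDH minus ATP1 at +15, 0.48 ± 0.05 (SD, n = 3; adjusted p = 0.0378), and it was not called without set 1 (0.50, adjusted p = 0.0592) or without set 3 (0.47, adjusted p = 0.0990), nor on swapped arrays alone (0.24, adjusted p = 0.404). At +5 it was not called without set 2 (0.34, adjusted p = 0.125) or on forward arrays alone (0.52, adjusted p = 0.212), and at +20 it was not called on swapped arrays alone (0.49, adjusted p = 0.0818).

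The ATP spots also differed from each other. ATP1 minus ATP2 was called at the 4 ages after +3, at 0.48 ± 0.11 for +5 and 0.41 ± 0.05 for +10 (SD, n = 2 each) and at 0.53 ± 0.05 for +15 and 0.49 ± 0.13 for +20 (SD, n = 3 each). With 1 set left in each, after leaving out set 1, the values at +5 and +10 were 0.39 and 0.37 and were not called (adjusted p = 0.156 and 0.173). The difference was not called at -3 (0.23, adjusted p = 0.113) or at 0 (0.09, adjusted p = 0.507). ATP1 was the higher of the pair on 30 of the 33 age arrays with both values. It was also the higher on every self-to-self array, where both channels held the same RNA. There ATP1 read 0.05, 0.19 and 0.22 and ATP2 -0.17, 0.06 and -0.35, without a dye swap to average with. How much of the difference at the later ages belongs to the spots themselves was not tested. In wild type minus fl at +3 the difference was below 0 as deposited, with sets of -0.33, -0.79 and -0.24 and a mean of -0.45 ± 0.29 (SD, n = 3; adjusted p = 0.000770). It came to -0.28 without set 2, and on forward arrays alone it was -0.23 and was not called (adjusted p = 0.240). With the named rows at +3 turned it would be 0.45, on the same side of 0 as at the 6 ages. At +10 the genotype value was 0.22 ± 0.20 (SD, n = 3; adjusted p = 0.0514), and without set 2 it was 0.33 and was called (adjusted p = 0.00959). The change with age of 0.67 was called (95% interval 0.39 to 0.95; adjusted p = 0.000566), whereas on forward arrays alone it was 0.30 and was not (adjusted p = 0.328). With the sign at +3 turned the change would be -0.23 and would not be called (adjusted p = 0.164).

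The self-to-self arrays give the size of values that no RNA difference stands behind. SDH read -0.23, -0.33 and -0.29 on them, ATP1 0.05, 0.19 and 0.22, and ATP2 -0.17, 0.06 and -0.35. As deposited, SDH was thus below and ATP1 above 0 on each of the 3 arrays. After centring, SDH read -0.02, -0.23 and 0 and ATP1 read 0.26, 0.29 and 0.51, so ATP1 reached there the size of its called centred value at -3, 0.36. SDH minus the mean of the ATP spots was -0.17, -0.45 and -0.23. These values are given as deposited, and they have no dye swap to average with. The dye listing of set 2 is reversed in the design text and its HEX reading was 8.25 against -9.04 and -8.59 in the other sets. As deposited, each SDH mean of the 8 comparisons was larger in size than the self-to-self values, whereas no mean of ATP1 exceeded 0.22, the largest of its own self-to-self values, in size. For ATP2 the called mean at +15, -0.34, was no larger in size than its self-to-self value of -0.35. Its called means at +5 (-0.62), at +20 (-0.58) and in wild type against fl at +3 (0.60) were larger. Taken from the forward and swapped arrays of the 22 sets, the dye effect of SDH, the difference of the 2 arrays divided by 2, had a median of 0.06 and ran from -0.60 to 0.47. Its median was -0.01 for ATP1 and -0.02 for ATP2.

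Counted from the highest of the 11 named spots, SDH held place 1 in both genotype comparisons, place 2 at +5, +10 and +20, place 3 at +15, place 9 at -3 and place 10 at 0. With the named rows at +3 turned its place in that comparison would be 11. It was called in 8 of 8 comparisons, as was TUB1, and its means spanned 2.86 over the 7 ages against 0.35 for ATP1 and 0.62 for ATP2. A wide span was not particular to SDH, since TUB1 spanned 3.59 and ACT1 2.88. The remaining named spots spanned 1.14 or less. Other spots whose names are used for parts of the respiratory chain had few calls as deposited. UQCR, a name used for subunits of the complex that takes electrons from ubiquinol, was called in 0 of 8 comparisons, with means from -0.36 to 0.38 and adjusted p from 0.0801 to 0.990, and in 1 of 8 at an unadjusted limma p below 0.05. Over the 7 ages the means of UQCR spanned 0.61, near the span of ATP2. Over the 6 age comparisons they correlated with those of SDH at 0.91. ACT2 (0.98), TUB1 (0.97), ACT1 (0.96) and TUB2 (0.92) correlated with SDH more closely than UQCR did. The other named spots lay between -0.57 for USP1 and 0.51 for CYC1. These comparisons share the +3 RNA and the values hold the array offset, so the correlations carry no test. CYC1, a name used for a cytochrome c gene in yeast, was called in 1 of 8, in wild type against fl at +3 (0.61, adjusted p = 0.00321). In that comparison the median of the 11 spot means was 0.66. Once centred, CYC1 was not called there, but it was called at +5 (-0.36) and in wild type against fl at +10 (-0.22).

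**Figure D5:**
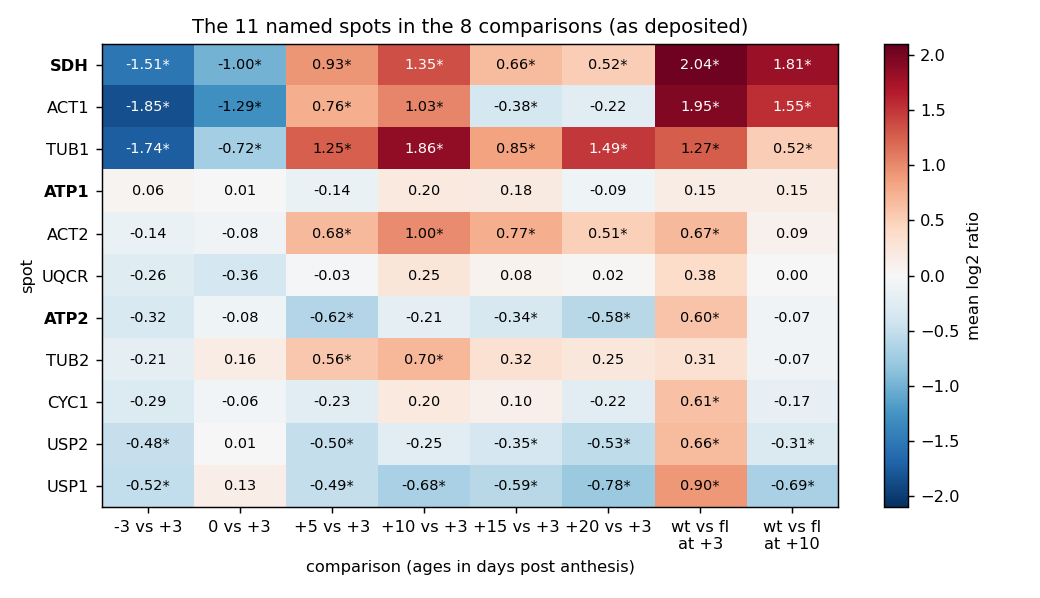
Mean log2 ratio as deposited (colour and printed value) of the 11 named spots (vertical axis) in the 8 comparisons (horizontal axis), with an asterisk where limma's adjusted p was below 0.05 and the 3 members in bold. SDH holds an asterisk in all 8 columns and ATP1 in none.

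Of the other named spots, TUB1 was the closest to SDH over the 6 age comparisons, with a root mean square difference of 0.50, followed by ACT1 with 0.57 and ACT2 with 0.70. All 6 comparisons share the +3 RNA, so these distances describe the courses and carry no test. The names TUB1 and ACT1 are used for tubulin and actin, the cytoskeletal proteins, and the spots, like SDH, were called at -3, 0, +5 and +10, with negative means at the first pair of ages and positive means at the second. Tested within arrays, SDH minus TUB1 was -0.98 ± 0.13 at +20 (SD, n = 3; adjusted p = 0.000113), and SDH exceeded TUB1 in wild type minus fl by 0.77 ± 0.32 at +3 and 1.29 ± 0.57 at +10 (SD, n = 3 each; adjusted p = 0.00227 and 5.12e-06). SDH exceeded ACT1 at +15 by 1.04 ± 0.14 and at +20 by 0.74 ± 0.17 (SD, n = 3 each; adjusted p = 0.000677 and 0.00884). In the genotype comparisons SDH and ACT1 did not differ beyond their error, with differences of 0.09 (95% interval -0.40 to 0.58) and 0.26 (-0.23 to 0.75). These tests against TUB1 and ACT1 were chosen after the values had been seen.

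ATP1 was nearest to CYC1, UQCR and TUB2, with root mean square differences of 0.16, 0.22 and 0.40. ATP2 was nearest to USP2, USP1 and CYC1, at 0.09, 0.27 and 0.33. Like ATP2, USP2 was called lower at +5, +15 and +20, with means of -0.50, -0.35 and -0.53, and its wild type minus fl at +3 was called higher, at 0.66. Unlike ATP2 it was also called at -3, at -0.48, and in wild type against fl at +10, at -0.31, where ATP2 stood at -0.32 and -0.07 without a call. These values are as deposited. After centring, USP2 was not called at -3 (-0.04, adjusted p = 0.745) or in wild type against fl at +3 (-0.08, adjusted p = 0.435). Centred USP2 was called lower at each age from +5 on, as centred ATP2 was, with -0.69 and -0.65 at +10. In wild type against fl at +10 centred USP2 was still called (-0.36, adjusted p = 0.000600) and centred ATP2 was not (-0.12, adjusted p = 0.192). The difference between these 2 spots was not tested.

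Among 9150 clones measured in all 6 age comparisons, CM046D03, CM002B06 and CM065B06 were the closest to SDH, with root mean square differences of 0.14, 0.15 and 0.16. Most clone rows were normalized and the named spots were not, so these distances and the genotype values below set values on 2 scales side by side. No annotation used here pairs these clones with a gene. Their wild-type minus fl values at +10 were 2.26, 1.72 and 1.85, where SDH stood at 1.81. At +3 they were 1.64, 1.61 and 1.36 with the sign of the clone rows turned, and of opposite sign as deposited, where SDH stood at 2.04. The clones nearest to ATP1 were CM095H09, CM047B01 and CM023D10, at distances from 0.05 to 0.08, and those nearest to ATP2 were CM034F11, CM041F12 and CM071F04, at 0.10 each. The wild-type minus fl values of these 6 clones ran from -0.39 to 0.17, with the sign at +3 turned.

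The place of SDH in the whole table changed with the comparison. At -3, 2.21% of clones were at least as far below +3 as SDH was, and at 0 the share was 2.32%. On the other side, 6.02% of clones were at least as high as SDH at +5 and 2.22% at +10, but 14.9% at +15 and 20.6% at +20, where its values are ordinary for the array. In wild type against fl the share was 3.73% at +10. At +3 it was 0.693% with the clone rows turned and 0.0198% with their deposited sign, the named rows being as deposited in both. Most clone rows were normalized by the authors and SDH was not, so these shares compare values with and without the array offset, and at -3 alone are both on the unnormalized scale.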

How the data were processed

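The authors deposited 1 table of log2 ratios for 51 arrays of 2 colours. As powers of 2, 152 of 152 values of SDH, ATP1 and ATP2 are whole multiples of 1e-04 within 0.02 of a step, so the named spots are not normalized. Clone rows of most arrays are, and how the authors did it is not given in the sources used here. Spot brightness is not in the table, so precision is limited by how many arrays there are. A value of exactly 0 counted as missing. The 2 arrays of a set were averaged, and 1 array that carries the labels of 2 ages (values equal within 1e-06) was left out. Ratios of -3 against +3 were turned. In the genotype comparison at +3 the clone rows were turned too, because across clones their dye effect had a correlation of -0.57 to -0.40 with that of the self-to-self arrays, against -0.06 to 0.69 elsewhere. The named rows there were not turned. If that is wrong, their signs in this comparison reverse.

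One group-means model over the 8 comparisons was fitted with limma 3.58.1 in R 4.3.3 (empirical Bayes) to probes with at least 2 complete sets and tested on simulated data, with Benjamini-Hochberg adjustment within each comparison over the whole table. Within-array differences entered as further probes. Set numbers were checked for pairing and not used as a block, since deviations of 70 pairs of sets with equal numbers correlated at -0.25 to 0.33 across probes. Members, lists and tests were chosen with earlier results of these data known. The spots and clones named as most like a member are the 3 with the smallest root mean square difference over the 6 age comparisons, and other named spots appear where a comparison needed them. Alternatives covered centring, the left-out array, exact zeros, the model, the block, single sets, dye orientation, the prior, the filter and the clone rows.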

Additional observations from a re-analysis of the deposited data

Results flagged for a closer look

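The genotype difference of ATP2 changed with age, as tested by the contrast of both ages in limma: wild type minus fl was 0.60 at +3 and -0.07 at +10, a change of -0.67 (adjusted p = 0.00975). The medians of the named spots averaged 0.74 over the arrays of +3 and 0.06 over those of +10, and after subtracting them per array the change of ATP2 was 0.0098 (adjusted p = 0.954). Without set 2 the change as deposited was -0.68 and missed the threshold (adjusted p = 0.0726). With the median of the other 8 named spots it was 0.065.

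ATP1 minus ATP2 also changed with age in the genotype comparison, from -0.45 to 0.22, by 0.67 (adjusted p = 0.000566). Both changes rest on the sign of the named rows at +3, which is likely but not settled. With that sign turned, the change of ATP2 would be 0.54 (adjusted p = 0.0332) and that of ATP1 minus ATP2 would be -0.23 (adjusted p = 0.164). As a difference within arrays it does not hold the array offset. On forward arrays alone the change was 0.30 (adjusted p = 0.328) and on swapped arrays alone 1.04. What the dye orientation contributes was not tested. These are 2 of 5 genotype-by-age differences looked at. None of 40 groups of arrays held a member value or difference flagged by its gap to the next array. With so few arrays in a group this rule can miss an unusual array, and it did not look at other spots. On the swapped array of +5 in set 2, SDH read 1.75, TUB1 0.40 and ACT1 -0.12. The other arrays of +5 used ran from 0.16 to 1.08 for SDH, 1.18 to 1.72 for TUB1 and 0.81 to 1.20 for ACT1.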

How the results depend on the processing

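SDH and SDH minus the mean of the ATP spots were recomputed 249 times over the 8 comparisons, and 241 values kept their direction and their call. The 2 that reversed come from turning the named rows of wild type against fl at +3, and the 6 no longer called were SDH at +20 without set 1 (0.34), SDH at +5 without set 2 (0.45), SDH at +5 on forward arrays only (0.62, adjusted p = 0.0828), SDH on swapped arrays only at +15 (0.41, adjusted p = 0.168) and at +20 (0.34, adjusted p = 0.255), and SDH minus the ATP mean at +15 on swapped arrays only (0.52, adjusted p = 0.0665). Leaving out 1 set gave SDH a range of 0.45 to 1.41 at +5 and of 0.34 to 0.64 at +20. Where this left 1 set in a comparison, that set was assumed to vary like the others. Of 1536 recomputed values of the other results, 1439 kept direction and side of the threshold. Both centrings on named spots reversed ATP1 in wild type against fl at +3 (-0.58 with all 11 spots, -0.57 with the other 8), ATP2 there (-0.13 and -0.12), their genotype differences by age (ATP1 0.68 and 0.73, ATP2 0.0098 and 0.065) and their derived fl changes (ATP1 -0.92 and -1.05, ATP2 -0.66 and -0.79). The medians subtracted at +3 averaged 0.74 and 0.73. Turning the named rows at +3 by construction gave wild type minus fl of -2.04 for SDH, -0.60 for ATP2, -1.67 for SDH minus the ATP mean, -1.89 for SDH minus ATP1, -1.44 for SDH minus ATP2, 0.45 for ATP1 minus ATP2 and -0.77 for SDH minus TUB1. The genotype differences by age became 3.85 for SDH, 0.54 for ATP2, 3.55 for SDH minus ATP1 and -0.23 for ATP1 minus ATP2. The derived fl changes became -2.50 for SDH, -0.74 for ATP2, -2.08 for SDH minus the ATP mean, -2.40 for SDH minus ATP1, -1.76 for SDH minus ATP2 and 0.64 for ATP1 minus ATP2. Whether set numbers pair the samples was not settled. Of 70 pairs, 17 correlated above 0.1, with a median of 0.05 over all pairs, yet 13 of 22 sets lay closest to their own number. With the set number as a replicate block, SDH was 0.83 at +5 and 1.45 at +10, and no call of a member or of SDH minus the ATP mean changed, while ATP1 minus ATP2 in wild type against fl at +10 became called (adjusted p = 0.0353). The centring on Y1 to Y4, that on the clone median and the signs of the clone and named rows at +3 were chosen as alternatives after the data had been seen. Centring on the control spots Y1 to Y4 kept all SDH calls, and ATP2 lost its calls at +5 (-0.46, adjusted p = 0.0758) and +15 (-0.21, adjusted p = 0.286). Centring on the clone median at -3 gave SDH -1.47. The deposited sign of the clone rows at +3 changed no call of the members.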
